A study of Mus musculus with 12 samples.

Results

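The Myc and Max network is a family of transcription factors with a basic region, a helix-loop-helix and a leucine zipper, which bind DNA as pairs. Its members were taken from the expression table by gene symbol as Myc, Max, Mxd1, Mxd3, Mxd4, Mxi1, Mnt and Mlx. Each symbol matched 1 row, so 8 of the 14560 genes listed were members.

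RNA was sequenced from 4 populations sorted from the bone marrow of C57BL/6 mice, giving 12 libraries, 3 from each population. DN-GMPs are granulocyte-monocyte progenitors sorted as CDH1- (E-cadherin) and FceRIa- (a chain of the IgE receptor), and Pro-BMPs are progenitors sorted as CDH1+ and FceRIa-. Pre-BMPs were sorted as FceRIa+ and are given as CDH1-. All progenitors were c-Kit+, CD34+ and CD16/32+ and lacked Sca1, CD11b, Gr1, B220, CD3 and Ter119, while basophils were c-Kit-, CD49b+ and FceRIa+ and lacked Sca1, B220, CD4, CD8a and Ter119. All mice were of 1 strain and no group was treated. The series names 3 mice, but the library numbers 1 to 3 are not said to mark a mouse, so the p-values cover only the spread among libraries, which may be technical.

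As background, a Myc-Max pair binds the E-box CACGTG and activates genes of ribosome building, metabolism and cell growth. Mxd1, Mxd3, Mxd4, Mxi1 and Mnt also pair with Max on the same E-box, where they bring in the Sin3 and histone deacetylase corepressor, while Mlx is the partner of the glucose-sensing factors MondoA (Mlxip) and ChREBP (Mlxipl). In blood cell formation Myc is known from cycling progenitors, and Mxd1 is known to come up as myeloid cells differentiate.

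Basophils had the lowest Myc and the highest Mxd1 RNA of the 4 populations. Myc fell 2.58-fold in basophils against Pre-BMPs and Mxd1 rose 14.4-fold, while the progenitor populations differed from each other by much less. Max, Mxd3 and Mxi1 were also higher in basophils than in Pre-BMPs. The calls of Mxd3 and Mxi1 were lost without some single libraries and when libraries were scaled by total reads. Mlx was lower in Pre-BMPs than in Pro-BMPs, a call that also depended on single libraries. The differences of Mxd4 and Mnt among the 4 populations did not pass the test. The values below are reads per 1000000 (CPM) of a scaled library size, and levels of different genes are compared only per kilobase (kb) of exon. In bulk RNA, fewer cells that express a gene and less RNA of it per cell cannot be told apart.

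The E-box letters CACGTG were looked up in promoter windows from 250 bases before to 50 bases after each annotated gene start (RefSeq, build GRCm38.p6). The motif reads the same on both strands. The table of windows held 7 of the 8 members, all but Myc. Of these 7, Max, Mlx, Mnt and Mxd4 had 1 CACGTG each, and Mxd1, Mxd3 and Mxi1 had none. Among all genes with a window, 8.09% had the motif, and among the 9782 genes of the expression table with a window, 11.7% did. A match is a description of the letters, not a binding site. The 60 bases around each member's motif are shown because these are the windows in which a member of the network carries the letters its own pairs can bind, with CACGTG in capitals.
Max, chr12:76962219-76962278, minus strand: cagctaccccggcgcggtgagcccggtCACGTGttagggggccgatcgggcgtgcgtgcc
Mlx, chr11:101087223-101087282, plus strand: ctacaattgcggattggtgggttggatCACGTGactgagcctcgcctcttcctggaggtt
Mnt, chr11:74830774-74830833, plus strand: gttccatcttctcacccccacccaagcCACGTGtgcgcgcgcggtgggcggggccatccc
Mxd4, chr5:34187897-34187956, minus strand: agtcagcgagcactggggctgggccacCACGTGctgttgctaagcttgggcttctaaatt
The motif began 3 bases before the annotated start in Max, 40 before in Mlx, 123 before in Mnt and 219 before in Mxd4. The whole window of Mxd1 is shown next, because Mxd1 is the member that differed most between populations; it holds no CACGTG.
Mxd1, chr6:86669110-86669409, minus strand: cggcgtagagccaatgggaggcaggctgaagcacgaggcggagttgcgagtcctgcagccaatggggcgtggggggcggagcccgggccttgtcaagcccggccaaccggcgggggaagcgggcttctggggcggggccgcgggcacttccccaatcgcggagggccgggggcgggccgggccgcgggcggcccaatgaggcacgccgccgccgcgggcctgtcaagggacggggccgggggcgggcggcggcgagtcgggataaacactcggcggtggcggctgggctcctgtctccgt

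Each library held between 29762981 and 42502405 reads on listed genes, and a count of 0 in a library allows 3 reads, or 0.0512 to 0.0745 CPM (counting error only). Reads assigned to no gene feature made up 6.65% to 7.77% of reads in DN-GMPs, then 7.69% to 8.42% of those in Pro-BMPs, 9.15% to 10.2% of those in Pre-BMPs and 11.2% to 12.6% of those in basophils. This share moved with the differences of basophils given below, and its part in them was not tested. The 8 basophil markers summed to 61.1 to 80.7 CPM in DN-GMPs, 453 to 700 CPM in Pro-BMPs, 3587 to 4519 CPM in Pre-BMPs and 36305 to 41769 CPM in basophils, so their order followed the labels. Cdh1 RNA went against the label of Pre-BMPs as CDH1-, with 147 ± 37.6 CPM in the Pre-BMP libraries and 42.8 ± 11.7 CPM in Pro-BMPs (SD, n = 3 each).

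Myc (chr15:61985391-61990374, GRCm38) encodes the activating partner of Max. It stood at 403, 414 and 340 CPM in the DN-GMP libraries, 323, 285 and 364 CPM in Pro-BMPs, 258, 213 and 234 CPM in Pre-BMPs, and 105, 89.8 and 79.7 CPM in basophils. DN-GMPs and Pro-BMPs overlapped, all Pre-BMP libraries lay below all Pro-BMP libraries, and every basophil library lay far below every progenitor library. The means were 386 ± 40.2 CPM in DN-GMPs, 324 ± 39.6 CPM in Pro-BMPs, 235 ± 22.4 CPM in Pre-BMPs and 91.5 ± 12.8 CPM in basophils (SD, n = 3 each). The log2 difference of basophils against Pre-BMPs was -1.37 (SE 0.132, limma adjusted p = 1.76e-05), and that against DN-GMPs was -2.08 (SE 0.132, adjusted p = 2.90e-07). Both calls held when any 1 of the 12 libraries was left out, with log2 differences of -1.47 to -1.27 and of -2.18 to -1.98.

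Between neighbouring progenitor populations Myc differed by less than the test could call. The log2 difference of Pro-BMPs against DN-GMPs was -0.25 (SE 0.132, limma adjusted p = 0.447). For Pre-BMPs against Pro-BMPs it was -0.46 (SE 0.132, adjusted p = 0.0509), just outside the threshold of 0.05. This difference passed when 5 reads rather than 0.5 were added (adjusted p = 0.0449), when genes under a mean of 1 CPM were left out (0.0415), with voom weights (0.0205), and without DN-GMP library 3 (0.0480), basophil library 1 (0.0394) or basophil library 3 (0.0434). Over the wider step of Pre-BMPs against DN-GMPs, Myc fell by 0.71 as a log2 difference (SE 0.132, adjusted p = 0.00279), with every Pre-BMP library below every DN-GMP library.

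**Figure D1:**
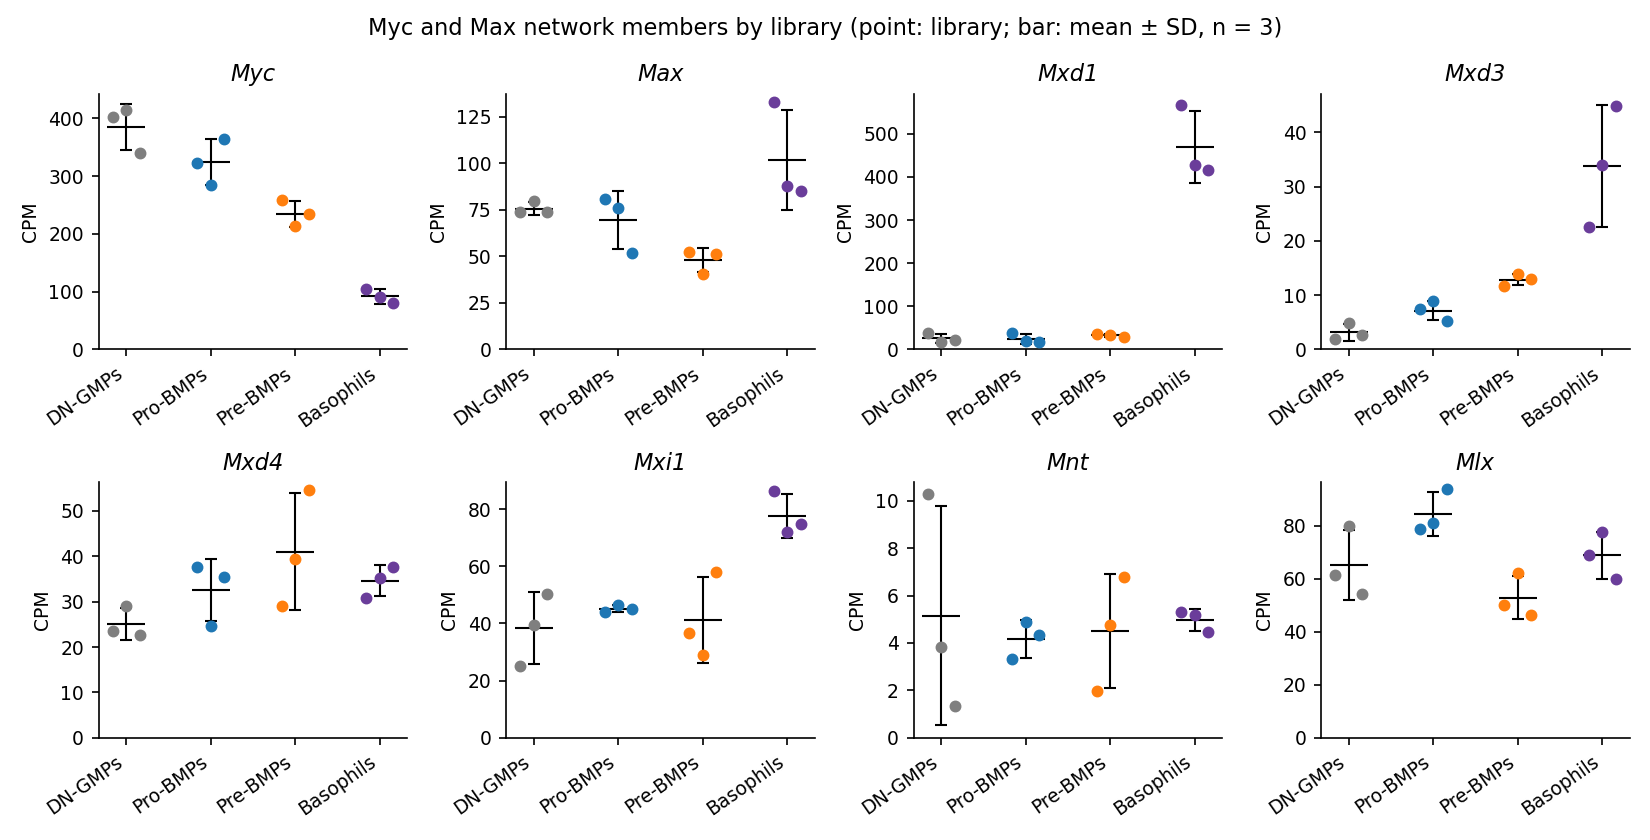
Level of each member in CPM (vertical axes, linear and starting at 0, each with its own range) in the 3 libraries of each population, ordered from DN-GMPs to basophils (points), with the mean ± SD (bars). Myc stands lowest in basophils at 79.7 to 105 CPM, while the basophil libraries of Mxd1 stand at 415 to 566 CPM and all others at 37.8 CPM or less.

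Max (chr12:76937269-76962201) is the shared partner of Myc, the Mxd proteins and Mnt. Its libraries read 73.6, 79.7 and 73.8 CPM in DN-GMPs, 81.1, 76.2 and 52.0 CPM in Pro-BMPs, 52.3, 40.5 and 51.5 CPM in Pre-BMPs, and 133, 88.0 and 85.0 CPM in basophils. The level was lowest in Pre-BMPs and highest in basophils, where 1 library stood well above the other 2. Max rose 2.09-fold in basophils against Pre-BMPs (log2 difference 1.06, SE 0.211, limma adjusted p = 0.00282), a call that held without any 1 library (adjusted p 0.00173 to 0.0147). Its fall in Pre-BMPs against DN-GMPs was smaller, at -0.66 on the log2 scale (SE 0.211, adjusted p = 0.0444). That call was lost without any 1 DN-GMP or Pre-BMP library, without Pro-BMP library 2 and without basophil library 2, with adjusted p up to 0.143. It was also lost when scaled by total reads (0.0550), with voom weights (0.0537) and with no mean-variance trend (0.0770). Basophils and DN-GMPs, the upper neighbours in the order, differed by 0.40 on the log2 scale with an adjusted p of 0.142. For basophils against Pro-BMPs the difference was 0.54 (adjusted p = 0.0603), which passed with voom weights (0.0401), without genes under 1 CPM (0.0489), and without Pro-BMP library 1 (0.0485) or basophil library 3 (0.0477).

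The 4 Mxd members are the repressing partners of Max. Mxd1 (chr6:86647042-86669161) read 36.7, 17.7 and 21.2 CPM in DN-GMPs, 37.8, 18.3 and 16.1 CPM in Pro-BMPs, 35.6, 32.9 and 28.4 CPM in Pre-BMPs, and 566, 427 and 415 CPM in basophils. The progenitor populations overlapped one another, and the lowest basophil library stood far above the highest progenitor library. Mxd1 averaged 469 ± 84.1 CPM in basophils and 32.3 ± 3.62 CPM in Pre-BMPs (SD, n = 3 each), a log2 difference of 3.85 (SE 0.333, limma adjusted p = 8.35e-06). Without any 1 library this difference was 3.71 to 3.93. Among progenitor populations, the largest Mxd1 difference was that of Pre-BMPs against Pro-BMPs, at 0.53 (SE 0.333, adjusted p = 0.388).

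Mxd3 (chr13:55325168-55329823), a member known from cycling cells, read 1.89, 4.82 and 2.66 CPM in DN-GMPs, 7.36, 8.84 and 5.21 CPM in Pro-BMPs, 11.7, 13.8 and 13 CPM in Pre-BMPs, and 22.5, 34.0 and 44.9 CPM in basophils. At each step, every library of the later population lay above every library of the earlier one. In basophils against Pre-BMPs it rose 2.54-fold (log2 difference 1.34, SE 0.391, limma adjusted p = 0.0221), and in Pre-BMPs against DN-GMPs 4.41-fold (log2 difference 2.14, SE 0.391, adjusted p = 0.00258). The basophil call was lost without Pre-BMP library 1 (adjusted p = 0.0678), 2 (0.0505) or 3 (0.0539), without basophil library 2 (0.0582) or 3 (0.0843), and when scaled by total reads (0.0613). The single steps of Pro-BMPs against DN-GMPs, at 1.27 (adjusted p = 0.147), and of Pre-BMPs against Pro-BMPs, at 0.88 (adjusted p = 0.207), did not pass. The first of them passed without DN-GMP library 2 (adjusted p = 0.0421). Of the exon bases of Mxd3, 4.43% are shared with Prelid1 on the other strand, and the library kits do not mark strand. Mxi1 and Mxd4 share 2.84% and 6.06% of their exon bases with Gm10197 and Gm42846, genes on the other strand that the table does not list.

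Mxi1 (chr19:53310518-53375810), also called Mxd2, read 25.2, 39.5 and 50.2 CPM in DN-GMPs, 43.9, 46.5 and 45.1 CPM in Pro-BMPs, 36.8, 28.8 and 57.9 CPM in Pre-BMPs, and 86.4, 71.8 and 74.9 CPM in basophils. The progenitor libraries overlapped throughout, and all basophil libraries stood above all progenitor libraries. Mxi1 rose 1.96-fold in basophils against Pre-BMPs (log2 difference 0.97, SE 0.277, limma adjusted p = 0.0203). The call was lost without Pre-BMP library 1 (adjusted p = 0.0629), Pre-BMP library 2 (0.0850) or basophil library 1 (0.0664), and when scaled by total reads (0.0877). Against DN-GMPs, Mxi1 in basophils was higher by 1.07 (SE 0.277, adjusted p = 0.00806), and without any 1 library the adjusted p reached at most 0.0305. Against Pro-BMPs the difference was 0.78 (adjusted p = 0.0428), and that call was lost without DN-GMP library 2, any 1 Pro-BMP library, Pre-BMP library 1 or any 1 basophil library (adjusted p up to 0.118), with quantile normalization (0.0842), when scaled by total reads (0.175) and with no trend (0.0653).

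Mxd4 (chr5:34173883-34187720) read 23.6, 29.0 and 22.6 CPM in DN-GMPs, 37.6, 24.7 and 35.4 CPM in Pro-BMPs, 29.1, 39.3 and 54.7 CPM in Pre-BMPs, and 30.9, 35.1 and 37.7 CPM in basophils. Its populations overlapped at every step, and the Pre-BMP libraries spread most. No contrast of Mxd4 passed the test. The nearest was Pre-BMPs against DN-GMPs at a log2 difference of 0.67 (SE 0.249, limma adjusted p = 0.0790), which passed only without Pre-BMP library 1 (0.0323). For basophils against Pre-BMPs the difference was -0.21 (SE 0.249, adjusted p = 0.583).

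Mnt (chr11:74830920-74845725), a repressing partner of Max that many cell types carry, read 10.3, 3.81 and 1.34 CPM in DN-GMPs, 3.31, 4.87 and 4.35 CPM in Pro-BMPs, 1.99, 4.75 and 6.80 CPM in Pre-BMPs, and 5.32, 5.18 and 4.45 CPM in basophils. The DN-GMP libraries alone spanned the range of all 12 libraries, from 54 to 487 reads. All 6 differences between populations lay between -0.04 and 0.40 on the log2 scale with an SE of 0.675, and the limma adjusted p was 0.651 or more.

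Mlx (chr11:101087277-101092207) read 61.6, 80.0 and 54.4 CPM in DN-GMPs, 78.8, 81.0 and 94.1 CPM in Pro-BMPs, 50.3, 62.1 and 46.4 CPM in Pre-BMPs, and 69.1, 77.7 and 59.9 CPM in basophils. The Pre-BMP libraries all lay below the Pro-BMP libraries, and the other neighbouring populations overlapped. The fall of Mlx in Pre-BMPs against Pro-BMPs was called, at a log2 difference of -0.68 (SE 0.177, limma adjusted p = 0.0343). The call was lost without Pro-BMP library 1 (adjusted p = 0.0668), 2 (0.0837) or 3 (0.107), without Pre-BMP library 1 (0.0957) or 3 (0.128), and with no mean-variance trend (0.0702). In basophils against Pro-BMPs Mlx stood at -0.30 (adjusted p = 0.202), and it was called lower when scaled by total reads (-0.59, adjusted p = 0.0187). Mlx shares 385 exon bases, 19.3% of its exon length, with Psmc3ip on the other strand, so reads there cannot be assigned to either gene.

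Counted over the network, 0 of 8 members were called in Pro-BMPs against DN-GMPs, where 2.53% of all genes were called by limma at an adjusted p under 0.05. In that contrast 1 member, Mxd3, had an unadjusted p under 0.05, and voom weights also called 0. The libraries of 1 member, Mxd3, did not overlap and stood higher, where all libraries stood above for 9.81% of all genes and below for 8.91%; 2.00% were called higher and 0.536% lower. In Pre-BMPs against Pro-BMPs 1 of 8 was called, Mlx, where 9.49% of all genes were, 4.80% higher and 4.69% lower. There the libraries of 3 members did not overlap, Mxd3 above and Myc and Mlx below, against 16.0% of all genes above and 16.0% below. In basophils against Pre-BMPs 5 of 8 were called, where 30.4% of all genes were: Max, Mxd1, Mxd3 and Mxi1 higher, against 13.9% of all genes, and Myc lower, against 16.5%. These 5 were also the members whose libraries did not overlap, where 22.3% of all genes lay above and 24.2% below. When scaled by total reads, Mxd3 and Mxi1 lost the call and 3 members were called, while the median of all genes shifted by -0.32 on the log2 scale. The share of called genes that were higher in basophils was then 26.6%, against 45.6% with the deposited scaling. Without Pre-BMP library 1 or Pre-BMP library 2 the count was also 3.

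In basophils against DN-GMPs 4 of 8 members were called, Mxd1, Mxd3 and Mxi1 higher and Myc lower, where 46.4% of all genes were called, 23.2% higher and 23.2% lower. When scaled by total reads the median of all genes shifted by -0.26, and 38.7% of the called genes were higher. The libraries of 6 members did not overlap, Max, Mxd1, Mxd3, Mxd4 and Mxi1 above (27.0% of all genes) and Myc below (27.1%). Of the remaining pairs, Mxd3 was higher and Myc and Max were lower in Pre-BMPs against DN-GMPs, where 21.9% of all genes were called, 12.2% higher and 9.69% lower. There the libraries of 4 members did not overlap, Mxd3 and Mxd4 above (20.0% of all genes) and Myc and Max below (19.2%). In basophils against Pro-BMPs Mxd1, Mxd3 and Mxi1 were higher and Myc lower, where 41.1% of all genes were called, 19.3% higher and 21.8% lower. The libraries of 6 members did not overlap there, Max, Mxd1, Mxd3 and Mxi1 above (25.8%) and Myc and Mlx below (27.7%). The F-test for any difference among the 4 populations called 6 of 8 members, all but Mxd4 (limma adjusted p = 0.170) and Mnt (0.950), where 46.8% of all genes were called. In that test Mlx (adjusted p = 0.0427) was lost with no mean-variance trend (0.0750) and without DN-GMP library 1, any 1 Pro-BMP library, Pre-BMP library 1 or 3, or basophil library 1 or 2, with adjusted p up to 0.122. Mxi1 (0.0254) was lost without basophil library 1, 2 (0.0590) or 3 (0.0685) and when scaled by total reads (0.105).

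**Figure D2:**
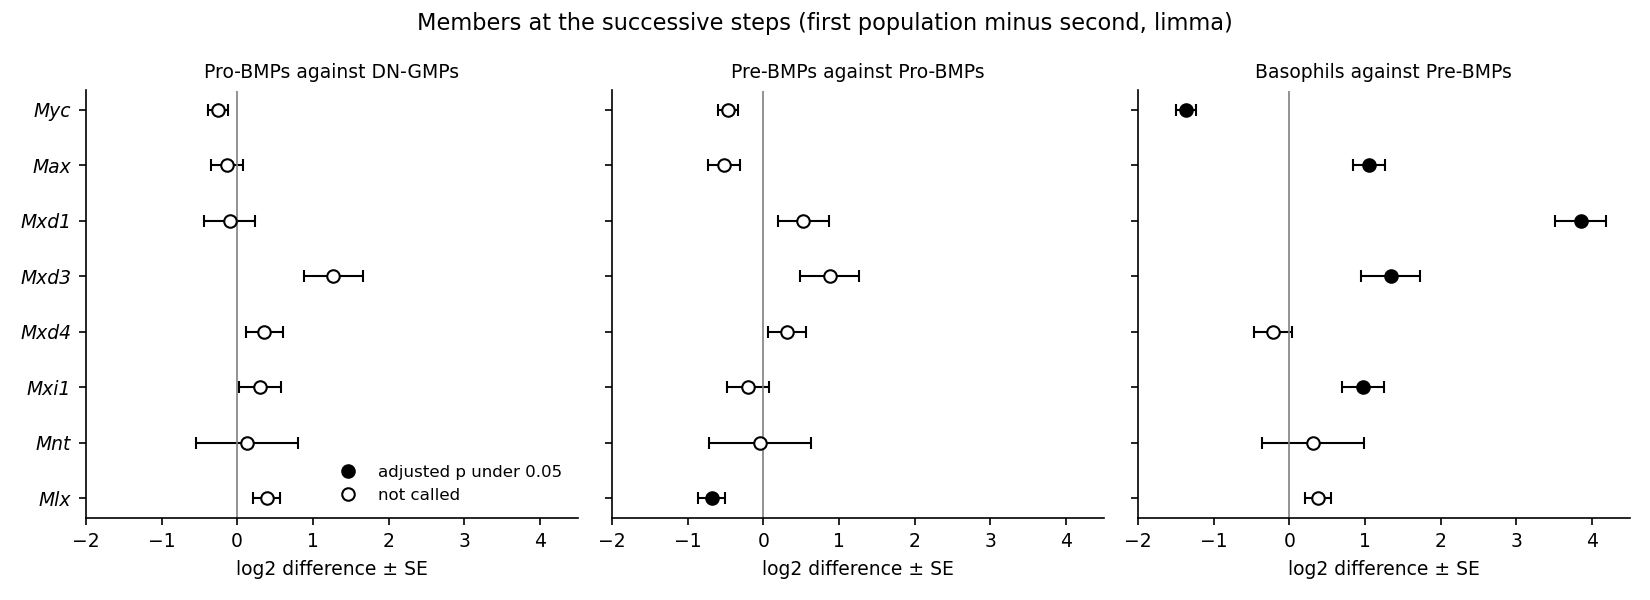
Log2 difference ± SE (horizontal axes) of each member at the 3 successive steps from DN-GMPs to basophils, from limma, with filled points at an adjusted p under 0.05. No point is filled in the first panel, Mlx is filled in the second, and Myc at -1.37, Max at 1.06, Mxd1 at 3.85, Mxd3 at 1.34 and Mxi1 at 0.97 are filled in the third.

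The balance of Myc and Mxd RNA was taken in each library as the log2 value of Myc minus the mean log2 value of Mxd1, Mxd3, Mxd4 and Mxi1. Gene length adds a constant to it, so its sign carries no meaning and only its change between libraries does. No test was made on this score. It was 4.82, 4.55 and 4.41 for the DN-GMP libraries, 3.63, 3.78 and 4.25 for Pro-BMPs, 3.32, 2.99 and 2.83 for Pre-BMPs, and 0.46, 0.21 and -0.10 for basophils. The populations did not overlap, and the means went down at each step, at 4.59 ± 0.21 for DN-GMPs, 3.89 ± 0.32 for Pro-BMPs, 3.05 ± 0.25 for Pre-BMPs and 0.19 ± 0.28 for basophils (SD, n = 3 each). The widest gap between neighbours was the last one.

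The gap between basophils and Pre-BMPs was also taken for each Mxd member. Myc minus Mxd1 was -2.35 ± 0.09 in basophils and 2.86 ± 0.17 in Pre-BMPs. Myc minus Mxd3 was 1.48 ± 0.70 in basophils and 4.19 ± 0.26 in Pre-BMPs. With Mxd1 left out, the balance still stood lower, at 1.04 ± 0.38 in basophils and 3.11 ± 0.36 in Pre-BMPs. Myc minus Mxi1 was 0.23 ± 0.12 in basophils and 2.57 ± 0.48 in Pre-BMPs. Myc minus Mxd4 was 1.40 ± 0.35 in basophils and 2.56 ± 0.54 in Pre-BMPs, the smallest difference of the 4. Each of these gaps includes the log2 difference of Myc itself, which was -1.37 in basophils against Pre-BMPs. That of Mxd4 itself was -0.21 and did not pass the test.

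**Figure D3:**
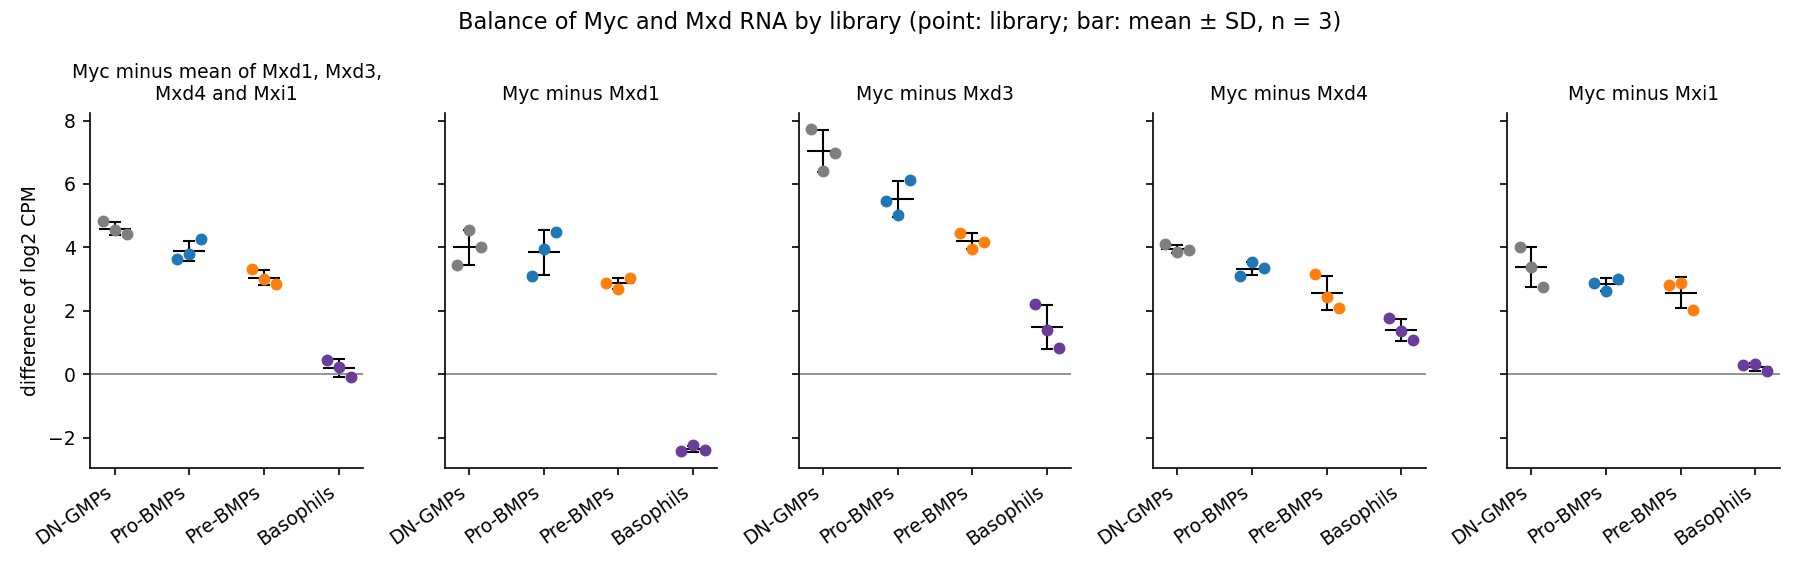
Difference of log2 CPM between Myc and the Mxd members (vertical axis, shared) in the 3 libraries of each population (points), with the mean ± SD (bars). The first panel uses the mean of the 4 Mxd members and stands at 4.59 in DN-GMPs and 0.19 in basophils, and the panel of Mxd1 has the widest gap between neighbours, with -2.35 in basophils and 2.86 in Pre-BMPs.

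Per kb of merged exon, Myc averaged 142 ± 14.8 CPM in DN-GMPs, 119 ± 14.6 CPM in Pro-BMPs, 86.5 ± 8.24 CPM in Pre-BMPs and 33.7 ± 4.71 CPM in basophils. The 4 Mxd members summed to 13.4 ± 0.879, 16.9 ± 2.16, 20.9 ± 3.11 and 96.1 ± 8.66 CPM per kb in the same order (SD, n = 3 each). Myc was thus above the summed Mxd level in every progenitor library and below it in every basophil library. The ratio of Myc to the sum was 10.6 ± 1.58 for DN-GMPs, 7.16 ± 1.42 for Pro-BMPs, 4.21 ± 0.774 for Pre-BMPs and 0.350 ± 0.0304 for basophils. With the longest transcript as the length, an alternative chosen after seeing the data, these ratios were 8.19, 5.55, 3.26 and 0.274. Which transcripts of each gene these cells use is not known from the table.

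Mxd1 made up 68.7% ± 6.37 of the summed Mxd level per kb in basophils, against 22.4% ± 5.34 in Pre-BMPs. In the earlier progenitors its share was 27.0% ± 12.8 for DN-GMPs and 19.6% ± 7.05 for Pro-BMPs. Max stood at 28.3 ± 7.46 CPM per kb in basophils and 13.4 ± 1.84 CPM per kb in Pre-BMPs. In progenitors its level per kb was well under that of Myc, and in basophils under the summed Mxd level. Its order against Myc in basophils turned with the length used: by merged exons Max stood at 28.3 CPM per kb and Myc at 33.7 CPM per kb, and by the longest transcript Max at 52.5 CPM per kb and Myc at 39.2 CPM per kb, with overlapping libraries under both lengths.

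**Figure D4:**
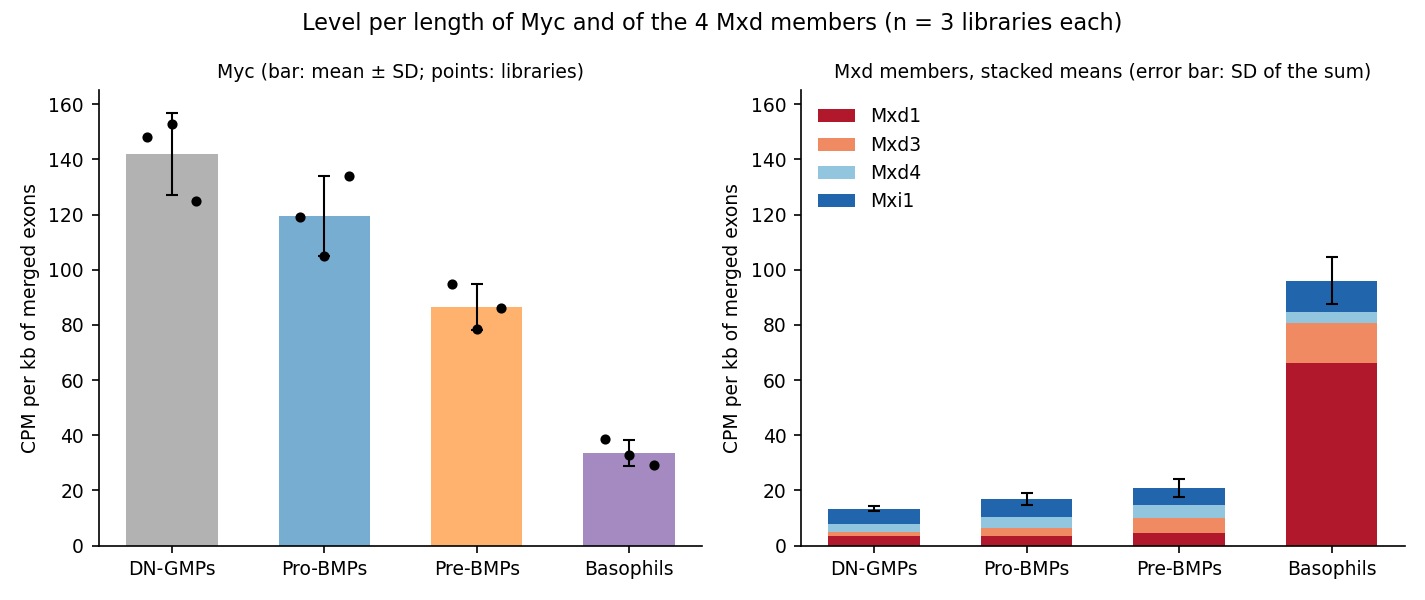
Level in CPM per kb of merged exon (vertical axes, same range, starting at 0) of Myc (left, bars: mean ± SD, points: libraries) and of the Mxd members (right, stacked means, error bar: SD of the sum) in each population. Myc goes from 142 in DN-GMPs to 33.7 in basophils, while the stacked Mxd members reach 96.1 in basophils, most of it Mxd1.

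The remaining genes of the extended network were Mycn, Mga and Mlxip, and Mycl and Mlxipl were not listed in the table. Mycn, the Myc relative best known from neural and early stem cells, had 0, 1 and 0 reads in DN-GMPs, 41, 0 and 54 reads in Pro-BMPs, 84, 183 and 85 reads in Pre-BMPs, and 0, 1 and 0 reads in basophils. It was thus detected in all Pre-BMP libraries and at or near 0 at both ends of the series. Mycn fell in basophils against Pre-BMPs (limma adjusted p = 0.00634, 0.0284 at most without any 1 library). The ratio of summed reads over summed scaled library size was 0.00336 there, with a 95% counting interval of 8.49e-05 to 0.0188. Mycn rose in Pre-BMPs against DN-GMPs (adjusted p = 0.00901), with a ratio of 312 and an interval of 55.6 to 12342, since the DN-GMP libraries held 1 read in all. Both intervals cover counting error of the summed reads only, not the spread among libraries. In Pro-BMPs against DN-GMPs Mycn did not pass (adjusted p = 0.329), and without Pro-BMP library 2, which held 0 reads, it did (0.0221).

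Mlxip, the MondoA partner of Mlx, averaged 59.2 ± 6.59 CPM in DN-GMPs, 63.8 ± 7.80 CPM in Pro-BMPs, 84.1 ± 21.7 CPM in Pre-BMPs and 121 ± 17.0 CPM in basophils. Its rise in basophils against DN-GMPs had a log2 difference of 1.03 (SE 0.200, limma adjusted p = 0.00142). Against Pre-BMPs the difference of 0.55 (SE 0.200) had an adjusted p of 0.0582, and it passed without Pre-BMP library 1 (0.0290) or basophil library 3 (0.0459), with voom weights (0.0355) and without genes under 1 CPM (0.0456). Mga, a large protein that pairs with Max and represses, averaged 68.7 ± 23.4 CPM in DN-GMPs and 54.9 ± 10.1 CPM in basophils, and the F-test over the 4 populations had an adjusted p of 0.675.

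The list of Myc-activated genes held 29 genes known as Myc targets from many cell types, all in the table. In basophils against Pre-BMPs 23 of them were lower and 1 higher, where 13.9% of all genes were called higher and 16.5% lower. Their median log2 difference was -1.25, and that of all genes was -0.10. In Pre-BMPs against Pro-BMPs 12 were lower and 0 higher (median -0.64, all genes 0.02), where 4.69% of all genes were called lower. In Pro-BMPs against DN-GMPs 0 were called in either direction (median -0.18, all genes 0.02), where 2.53% of all genes were called. The count of 12 was 5 without Pro-BMP library 2, 7 without Pre-BMP library 3 and 7 with no mean-variance trend. In basophils against DN-GMPs 26 were lower and 1 higher (median -2.19, all genes -0.01; 23.2% of all genes lower). Because Myc itself was measured in the same libraries, the counts describe genes that moved with it and do not show what moved them.

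Apex1, a DNA repair nuclease, fell most in basophils, to 4.75 ± 1.74 CPM, against 34.4 ± 4.20 CPM in Pre-BMPs (log2 difference -2.90, SE 0.255, limma adjusted p = 9.44e-06). Next came Polr1b, a subunit of RNA polymerase I that makes ribosomal RNA, at -2.43 (SE 0.377, adjusted p = 5.68e-04). Gnl3, a nucleolar GTPase, fell by 2.33 (SE 0.286, adjusted p = 1.07e-04), and Odc1, the first enzyme of polyamine synthesis, fell by 2.03 (SE 0.249, adjusted p = 1.10e-04). Of the list's genes, 5 were not called, at 0.64 for Tert (SE 2.74, adjusted p = 0.890), 0.50 for Slc7a5 (adjusted p = 0.0550), 0.25 for Cad, 0.17 for Ccnd2 and -0.29 for Bop1. Tert was near 0, at 0.440 ± 0.741 CPM in basophils and 0.502 ± 0.869 CPM in Pre-BMPs. Ldha, lactate dehydrogenase, rose to 1619 ± 77.7 CPM in basophils, against 973 ± 98.8 CPM in Pre-BMPs (log2 difference 0.74, SE 0.0724, adjusted p = 2.02e-05). With quantile normalization no gene of the list was called higher, and without Pro-BMP library 1 or 3 or basophil library 3 the count was 2.

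At the step of Pre-BMPs against Pro-BMPs, the genes of the list that fell most were Tfrc, the transferrin receptor for iron uptake, at -1.29 (SE 0.244, limma adjusted p = 0.00709), and Cad, which starts pyrimidine synthesis, at -1.05 (SE 0.279, adjusted p = 0.0369). Srm, spermidine synthase, stood at -0.98 (SE 0.207, adjusted p = 0.0129) and Mybbp1a, a nucleolar protein, at -0.84 (SE 0.141, adjusted p = 0.00367). The call of Cad was lost without Pro-BMP library 1 (adjusted p = 0.114), Pro-BMP library 2 (0.135) or Pre-BMP library 3 (0.0976), with no trend (0.0818) and with these populations fitted alone (0.0862). That of Srm was lost without Pro-BMP library 1 (0.0504) or Pro-BMP library 2 (0.0539).

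Of the 29 genes, 22 had a promoter window, and CACGTG stood in a window of 8 of them, or 36.4%, against 11.7% of table genes with a window. In basophils against Pre-BMPs, 7 of the 8 genes with the motif were lower and 1 was higher (median -1.15), and 12 of the 14 without it were lower (median -1.36). No test was made between them. The windows of Cdk4, the kinase partner of D cyclins, and Apex1 are shown because they hold the most copies of the motif in the list, with each CACGTG in capitals (RefSeq, GRCm38.p6).
Cdk4, chr10:127063285-127063584, plus strand: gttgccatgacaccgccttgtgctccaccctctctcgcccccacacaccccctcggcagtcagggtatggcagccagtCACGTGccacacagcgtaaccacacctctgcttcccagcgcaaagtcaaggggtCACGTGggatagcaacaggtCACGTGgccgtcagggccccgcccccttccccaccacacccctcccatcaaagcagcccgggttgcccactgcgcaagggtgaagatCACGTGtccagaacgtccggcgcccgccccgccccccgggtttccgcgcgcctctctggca
Apex1, chr14:50924699-50924998, plus strand: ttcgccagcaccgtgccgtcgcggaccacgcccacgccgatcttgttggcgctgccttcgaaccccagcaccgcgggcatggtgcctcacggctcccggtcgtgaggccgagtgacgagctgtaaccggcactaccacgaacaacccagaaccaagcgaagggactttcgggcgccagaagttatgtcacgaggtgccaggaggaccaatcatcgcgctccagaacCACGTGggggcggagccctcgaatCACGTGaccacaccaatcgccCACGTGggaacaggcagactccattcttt
Cdk4 holds 4 copies and Apex1 holds 3. Cdk4 averaged 195 ± 33.8 CPM in basophils and 438 ± 28.6 CPM in Pre-BMPs (log2 difference -1.18, SE 0.105, limma adjusted p = 9.79e-06).

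Of the 6 genes listed as repressed by Myc, 5 were in the table, all but Cdkn2b. In basophils against Pre-BMPs 4 of the 5 rose and 0 fell, with a median of 1.04 (all genes -0.10), where 13.9% of all genes were called higher and 16.5% lower. Ndrg1, a stress response gene, reached 159 ± 29.1 CPM in basophils, against 59.1 ± 8.34 CPM in Pre-BMPs (limma adjusted p = 0.0150). Cdkn1b, the cell cycle inhibitor p27, reached 55.1 ± 7.23 CPM in basophils, against 26.7 ± 2.62 CPM in Pre-BMPs (adjusted p = 0.00336). Gadd45a and Cdkn1a, genes of the growth arrest response, rose by 1.12 (adjusted p = 0.0160) and 0.93 (adjusted p = 0.0359). Ndrg2 stood at 1.85 ± 1.80 CPM in basophils and 3.54 ± 3.41 CPM in Pre-BMPs and did not pass (adjusted p = 0.896).

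The count of 4 repressed genes depended on single libraries and on the scaling. It was 1 without Pre-BMP library 2 and 2 without basophil library 1 or when scaled by total reads. Under that scaling 1379 of all genes were called higher, against 2019 with the deposited scaling. Cdkn1a lost its call without any 1 Pre-BMP library or basophil library 1 or 2 (adjusted p up to 0.118), when scaled by total reads (0.142) and with the replicate number as a block (0.0567). Gadd45a lost it without Pre-BMP library 2 (0.0663) and when scaled by total reads (0.0624), and Ndrg1 without Pre-BMP library 2 (0.0549) or basophil library 1 (0.0558). At the step of Pre-BMPs against Pro-BMPs 2 of the 5 rose, Cdkn1b by 1.60 (SE 0.213, limma adjusted p = 8.42e-04) and Ndrg1 by 1.88 (SE 0.380, adjusted p = 0.0102), where 4.80% of all genes were called higher. Ndrg2 ran the other way at that step, at 3.54 ± 3.41 CPM in Pre-BMPs and 35.1 ± 4.71 CPM in Pro-BMPs with all Pre-BMP libraries below and the lowest at 0, but its log2 difference of -5.79 had an SE of 2.42 and was not called (adjusted p = 0.177). In Pro-BMPs against DN-GMPs 1 was called higher, Gadd45a at 1.34 (adjusted p = 0.0426), where 2.00% of all genes were called higher. The call of Gadd45a was lost without any 1 library other than DN-GMP library 3 and Pre-BMP library 3, with adjusted p up to 0.161. That call was also lost with quantile normalization (0.0833), voom weights (0.0852), no trend (0.0534) and these populations fitted alone (0.182).

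The MondoA targets were Txnip, which restrains glucose uptake, and its relative Arrdc4. Txnip averaged 47.0 ± 2.64 CPM in DN-GMPs, 91.3 ± 21.2 CPM in Pro-BMPs, 298 ± 48.4 CPM in Pre-BMPs and 1431 ± 184 CPM in basophils (SD, n = 3 each). The populations did not overlap at any step. In basophils against Pre-BMPs Txnip rose by a log2 difference of 2.27 (SE 0.175, limma adjusted p = 3.63e-06) and Arrdc4 by 2.37 (SE 0.405, adjusted p = 0.00112). In Pre-BMPs against Pro-BMPs Txnip rose by 1.72 (SE 0.175, adjusted p = 1.45e-04), while Arrdc4 stood at 1.24 (SE 0.405, adjusted p = 0.0844). The first step of Txnip, 0.93 in Pro-BMPs against DN-GMPs (SE 0.175, adjusted p = 0.0153), lost its call without DN-GMP library 1 (0.0505) or 3 (0.0513) or Pro-BMP library 1 (0.0650) or 3 (0.0653). It was also lost with voom weights (0.184), with no trend (0.0675) and with these populations fitted alone (0.0828). Arrdc4 ran the other way at that step, at 8.38 ± 3.72 CPM in Pro-BMPs and 16.5 ± 3.68 CPM in DN-GMPs (log2 difference -1.06, SE 0.405, adjusted p = 0.253).

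**Figure D5:**
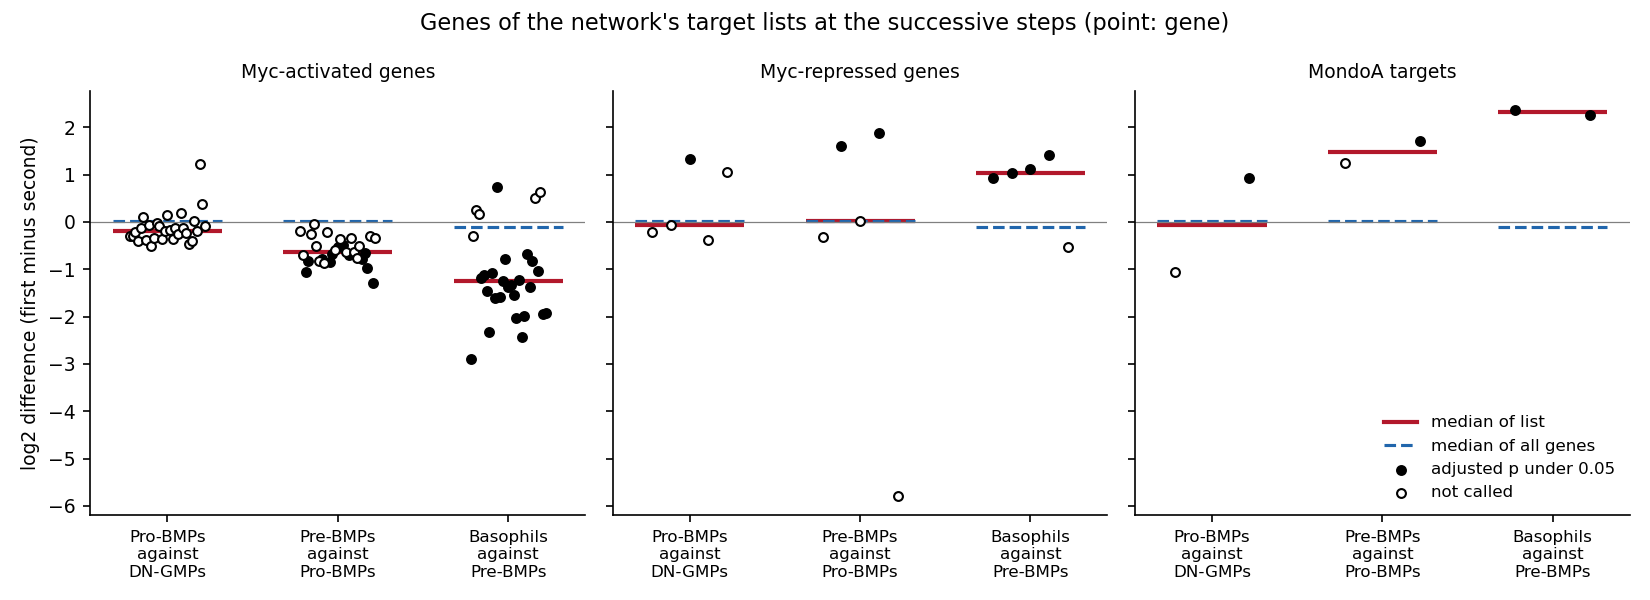
Log2 difference (vertical axis) of each gene of the Myc-activated, Myc-repressed and MondoA target lists at the successive steps (points, filled at a limma adjusted p under 0.05), with the median of the list (solid line) and of all genes (dashed line). The median of the Myc-activated genes goes from -0.18 through -0.64 to -1.25, while that of all genes stays between -0.10 and 0.02.

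RNAs of the cofactors of Myc and of the corepressor that Mxd proteins bring in were counted next. Of 19 Myc cofactors and turnover genes, 3 were higher and 5 lower in basophils against Pre-BMPs (median -0.20, all genes -0.10), where 13.9% of all genes were called higher and 16.5% lower. None was called at either progenitor step, where 2.53% of all genes were called in Pro-BMPs against DN-GMPs and 9.49% in Pre-BMPs against Pro-BMPs. But in Pre-BMPs against Pro-BMPs 1 was called lower under quantile normalization, 5 reads added, the 1 CPM minimum, these populations fitted alone and the replicate block, and without Pro-BMP library 3, Pre-BMP library 2 or basophil library 1. With voom weights 2 were called lower at that step. Kat2a, the GCN5 acetyltransferase, fell most, by 1.95 (SE 0.293, limma adjusted p = 4.69e-04), followed by the acetyltransferase Kat5 at -1.10 (SE 0.274, adjusted p = 0.0103) and the helicase Ruvbl2 at -1.06 (SE 0.177, adjusted p = 9.22e-04). Trrap, the scaffold of both acetyltransferase complexes, was higher by 1.08 (SE 0.354, adjusted p = 0.0376). That call was lost without Pre-BMP library 1 or 3 or basophil library 1 or 3 (adjusted p up to 0.136), under quantile normalization (0.0513), scaling by total reads (0.115), no trend (0.0640) and the replicate block (0.0616). When scaled by total reads, 0 of the list were higher and 9 lower. Under that scaling 1379 of all genes were called higher and 3813 lower, against 2019 and 2408 with the deposited scaling. Without Pre-BMP library 3 or basophil library 1, and with quantile normalization, 1 of the list rather than 3 was higher.

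Of 18 genes of the Sin3 and histone deacetylase corepressor, 3 were higher and 4 lower in basophils against Pre-BMPs (median -0.06, all genes -0.10), beside the same 13.9% and 16.5% of all genes. Ncor1, a corepressor scaffold, rose by 1.03 (SE 0.115, limma adjusted p = 5.66e-05) and Ing1, a histone reader, by 0.83 (SE 0.189, adjusted p = 0.00627). Sinhcaf, a subunit of the Sin3 complex, fell by 1.17 (SE 0.191, adjusted p = 8.14e-04) and the deacetylase Hdac2 by 0.88 (SE 0.0961, adjusted p = 4.70e-05). When scaled by total reads 1 was higher and 7 lower, and Ing1 was not called (0.0591). Under that scaling 1379 of all genes were called higher and 3813 lower, against 2019 and 2408 with the deposited scaling. At the earlier steps 1 of the 18 was called, Rbbp7, which was lower in Pre-BMPs against Pro-BMPs by 0.33 (SE 0.0673, adjusted p = 0.0104, and 0.126 with no trend). At that step 4.69% of all genes were called lower and 4.80% higher, and in Pro-BMPs against DN-GMPs 2.53% were called.

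Marker genes of other cell types also differed between basophils and Pre-BMPs, and their part in the network's differences was not tested. The share of all genes called there was 13.9% higher and 16.5% lower. The 9 neutrophil markers summed to 2920 to 4055 CPM in basophils and 5375 to 6555 CPM in Pre-BMPs, with none at 0 in every library of a population, 1 called higher and 3 lower. The 5 eosinophil markers summed to 240 to 379 CPM in basophils, with Ear6 at 0 reads, and to 2003 to 3355 CPM in Pre-BMPs, and all 5 were called lower. The 7 monocyte and dendritic markers summed to 267 to 442 CPM in basophils, with Cd74 at 0, and to 112 to 177 CPM in Pre-BMPs, but 2 were called higher and 2 lower, with a median log2 difference of -0.91. Most of that sum in basophils was Ccr2, at 302 ± 88.6 CPM in basophils and 5.92 ± 0.398 CPM in Pre-BMPs, while Cx3cr1 stood at 10.1 ± 7.01 CPM in basophils and 125 ± 22.8 CPM in Pre-BMPs. The 4 progenitor markers summed to 116 to 190 CPM in basophils, with Flt3 at 0, and to 1157 to 1301 CPM in Pre-BMPs, and all 4 were called lower. The 7 proliferation markers overlapped, at 1616 to 2031 CPM in basophils and 1944 to 2068 CPM in Pre-BMPs, with 1 called higher and 2 lower. The 4 listed mast cell markers summed to 3446 to 3856 CPM in basophils and 1654 to 1809 CPM in Pre-BMPs, and none was at 0 in every library of either. Of these 4, 1 was called higher and 3 lower, with a median log2 difference of -8.10. The sum was mostly Cpa3, at 3584 ± 234 CPM in basophils and 1568 ± 83.6 CPM in Pre-BMPs, while Cma1 stood at 0.554 ± 0.879 CPM in basophils and 141 ± 80.4 CPM in Pre-BMPs. The 6 erythroid and megakaryocyte markers summed to 1204 to 1596 CPM in basophils, with Pf4 at 0, and to 485 to 607 CPM in Pre-BMPs, with 1 called higher, 2 lower and a median of -4.37. The 3 listed lymphoid markers summed to 557 to 642 CPM in basophils and 611 to 677 CPM in Pre-BMPs, with 1 called higher and 1 lower. Of the 5 genes of the sorting gates 2 were called higher and 2 lower. Fcer1a stood at 2862 ± 189 CPM in basophils and 458 ± 31.6 CPM in Pre-BMPs, and Kit at 22.4 ± 10.3 CPM in basophils and 463 ± 72.8 CPM in Pre-BMPs.

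Genes whose level followed that of Myc most closely were found by Pearson's r over the 12 libraries among 8122 genes with a mean of at least 10 CPM. Libraries of 1 population share their cell type, so r mostly describes the order of the 4 populations and is given as a description. The highest r were those of Ltv1 (0.988) and Rcc2 (0.988), and Hspa9 followed at 0.987. Ltv1, a ribosome assembly factor, averaged 129 CPM in DN-GMPs, 101 CPM in Pro-BMPs, 79.6 CPM in Pre-BMPs and 20.4 CPM in basophils. The lowest r were those of Calm2 (-0.987), Gabarap (-0.984) and Ccnd3 (-0.979). Ccnd3, cyclin D3, averaged 123, 141, 177 and 590 CPM in the same order of populations, so it ran opposite to Myc.

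Mxd1 was followed most closely by Prkd3 (r = 0.989), Itgb2 (0.988) and Btg1 (0.986). Btg1, an antiproliferative gene, averaged 26.9 CPM in DN-GMPs, 31.8 CPM in Pro-BMPs, 43.2 CPM in Pre-BMPs and 227 CPM in basophils, and Itgb2, the beta-2 integrin chain of leukocytes, reached 1145 CPM in basophils, against 61.7 CPM in Pre-BMPs. For Mxd4 the highest r were lower, at 0.894 for Ube2l6, 0.881 for Plcb3 and 0.872 for Wtap.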

How the data were processed

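RNA-seq libraries of 4 sorted mouse bone marrow populations (3 libraries each) were analysed. Per the labels' protocols, sorted cells went into TRIzol and the kits were SmartSeq v4 and Nextera XT. HTSeq, STAR, Trimmomatic and deepTools are named per the submitters' processing notes; their versions, the genome build and the annotation were not given in the sources used here. The authors deposited log2 values per gene and library. In these deposited log2 values, 100% of entries came back as whole reads within 0.001, as log2 of reads plus 0.5 per 1000000 of a scaled library size, and the 3 rows for unassigned reads were left out of all tests. The members, gene lists and tests were chosen with earlier results of these data known.

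Tests used limma (version 3.58.1, R version 4.3.3) on the deposited log2 values, with 1 mean per population over all 12 libraries and a mean-variance trend. They were two-sided, with Benjamini-Hochberg adjustment over all 14560 genes and a threshold of 0.05. The fit was also tried on simulated counts in which every gene had the same spread setting. That run does not cover the unequal spreads of the genes in these data. Fold changes are on this log2 scale, which can understate or overstate changes of genes with few reads. Mycn in Pre-BMPs against Pro-BMPs, where 1 Pro-BMP library held 0 reads, differed 10.4-fold by log2 means. By summed reads over summed scaled library size it differed 3.68-fold. Levels per kb used merged exons of GENCODE M21 (GRCm38), in which 14515 of the listed genes were found by identifier. The genes named were all members, the extended network, up to 4 called genes of each list and contrast with the largest difference, and the 3 genes most like or unlike a member. Bop1, Ccnd2, Ccr2, Cdh1, Cdk4, Cma1, Cpa3, Cx3cr1, Fcer1a, Kit, Ldha, Ndrg2, Slc7a5 and Tert were chosen after their values were seen. Alternatives were quantile normalization, scaling by total reads, 5 reads added, a minimum mean of 1 CPM, voom weights, no trend, populations fitted alone, the replicate number as a block, and leaving out each library. The minimum of 1 CPM was set on the mean log2 value. Promoter windows (300 bases) came from RefSeq, build GRCm38.p6.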

Additional observations from a re-analysis of the deposited data

How the results depend on the processing

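Of the counts of members called, that of basophils against Pre-BMPs was 5 and became 3 when scaled by total reads. That of Pre-BMPs against Pro-BMPs was 1 and became 2 with 5 reads added, with a minimum mean of 1 CPM and with voom weights, and 0 with no mean-variance trend. Leaving out 1 library in turn gave 0 to 1 members for Pro-BMPs against DN-GMPs, 0 to 2 for Pre-BMPs against Pro-BMPs, 3 to 5 for basophils against Pre-BMPs and 4 for basophils against DN-GMPs, and 4 to 6 in the F-test. The balance of Myc and Mxd members is a difference within a library, so scaling by total reads cancels in it and weights, trend and block do not enter it. Its means without 1 library were 4.48 to 4.68 for DN-GMPs, 3.71 to 4.01 for Pro-BMPs, 2.91 to 3.16 for Pre-BMPs and 0.06 to 0.33 for basophils. Leaving out Mxd1 changed the mean of basophils to 1.04, against 0.19 with it. Of 1112 member results under these settings, 51 lost a call, 13 gained one and 25 changed sign. None of these 25 was called in either setting, and the cause was not tested.

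The sign changes under another scaling were, with quantile normalization, Mnt in Pre-BMPs against DN-GMPs (-0.15) and Mlx in basophils against DN-GMPs (-0.08). When scaled by total reads they were Mxd4 (-0.18) and Mnt (-0.02) in basophils against Pro-BMPs, Mnt in basophils against Pre-BMPs (-0.01) and Mlx in basophils against DN-GMPs (-0.17). Without 1 library, the log2 differences of Pro-BMPs against DN-GMPs ran from -0.26 to 0.06 for Max, -0.48 to 0.21 for Mxd1, -0.60 to 0.86 for Mnt and -0.25 to 0.18 for Mga. Those of Pre-BMPs against Pro-BMPs ran from -0.42 to 0.46 for Mnt and -0.47 to 0.03 for Mxi1. Those of basophils against Pre-BMPs ran from -0.19 to 0.69 for Mnt, -0.43 to 0.03 for Mxd4 and -0.21 to 0.04 for Mga. Those of Pre-BMPs against DN-GMPs ran from -0.65 to 0.82 for Mnt and -0.18 to 0.33 for Mxi1, and those of basophils ran from -0.34 to 1.13 for Mnt and -0.04 to 0.24 for Mlx against DN-GMPs and from -0.08 to 0.22 for Mxd4 against Pro-BMPs.

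Counts over all genes that moved by over 1.5 times were 228 of 369 calls in Pro-BMPs against DN-GMPs with these populations fitted alone and 231 without Pro-BMP library 3. The 291 higher became 155 with voom weights and 153 fitted alone, and the 78 lower became 45 with no trend. In Pre-BMPs against Pro-BMPs, 1382 calls became 885, 778 and 792 without Pro-BMP library 1, Pro-BMP library 2 and Pre-BMP library 3, and the 683 lower became 444 with no trend. Without 1 library, the genes lower in Pro-BMPs against DN-GMPs numbered 49 (DN-GMP library 3), 51 (Pro-BMP library 1) and 51 (Pro-BMP library 3), and those higher 180 (Pro-BMP library 3). In Pre-BMPs against Pro-BMPs, the 699 higher became 416, 438 and 363 without Pro-BMP library 2, Pre-BMP library 1 and Pre-BMP library 3, and the 683 lower became 412, 362 and 429 without Pro-BMP library 1, Pro-BMP library 2 and Pre-BMP library 3. Genes lower in basophils against Pre-BMPs numbered 2408, and 3813 when scaled by total reads. Of 18 same-numbered pairs of libraries, 2 had deviations from the population means that correlated above 0.1 (range -0.123 to 0.127, 8128 genes). With 3 libraries in each population, these correlations cannot tell whether shared library numbers mark pairs. With the number as a replicate block, the calls over all genes were 312, 1216, 4286 and 6587 in the 4 main contrasts, against 369, 1382, 4427 and 6749 without it, and the counts of members called were 0, 1, 5 and 4 as without it. Mnt and Mycn had 54 to 487 and 0 to 183 reads per library.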
